A study of Mus musculus with 18 samples.

Results

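The transcriptome of the left ventricle 10 min after coronary ligation was compared with that of sham mice, over every gene that reached 1 FPKM in at least 1 of the 6 mice compared. FPKM is a level scaled to transcript length and to the number of mapped fragments. The rule kept 11949 of the 24419 gene symbols and used 6 of the 18 mice of the series, 3 per group. The mice were C57BL/6 animals 8 weeks old, male by the methods of the study, under sodium pentobarbital at 50 mg/kg given into the peritoneum. The proximal left anterior descending coronary artery of the AMI mice was ligated, and polyA RNA was sequenced from the infarcted heart tissue at 10 min. The control group of the labels is the sham group of the study. Neither source describes the sham procedure, the time from that procedure to tissue collection or the hour of collection. The 3 mice of a group are separate animals, and p-values measure the spread between them. Single values are given in the order of mice 1, 2 and 3 of a group. Values with ± are means and SD over the 3 mice of a group, and a value that rose or fell from 1 mean to another did so from sham to 10 min.

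Closure of a coronary artery stops oxygen delivery at once, and cardiomyocytes pass within seconds to minutes from fatty acid oxidation to anaerobic glycolysis while calcium and hydrogen ions accumulate. Transcription answers in waves. Immediate early genes such as Fos and Egr1 need no new protein to be switched on, are short, and give mature mRNA within minutes, whereas inflammatory and matrix genes follow over hours and days. The heart also runs a circadian clock, in which CLOCK and BMAL1 (the product of Arntl) activate E-box genes such as the Period and Cryptochrome repressors, and in which REV-ERB proteins repress Arntl through ROR response elements.

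At 10 min, 50 genes were called higher and 30 called lower than in the sham mice, where called stands for an adjusted p under 0.05 in limma's moderated test on log2(FPKM + 1), Benjamini-Hochberg adjusted over all 11949 genes. That is 0.67% of the genes tested in all, 0.418% higher and 0.251% lower. The groups did not overlap for any of the 80, against 12.5% of all genes whose 3 AMI mice lay above all sham mice and 8.56% below. The log2 fold change of the called genes had a median of 0.69 among the higher and -0.63 among the lower genes, and 14 higher and 10 lower genes had a ratio of mean FPKM over 2. By an unadjusted p under 0.05 with a ratio over 2, the thresholds of the study, 49 genes (0.41%) were higher and 47 (0.393%) lower, and with genes kept that reached 1 FPKM in any of the 18 mice it was 91 and 70. An unadjusted p under 0.05 at any ratio was reached by 9.11% of the genes upwards and 6.28% downwards, which is the background for the counts of list members below. Over all genes the median log2 fold change was 0.02. The filter let in 220 genes that reached 1 FPKM only in 10 min mice and 190 that did so only in sham mice. Among the 220 are Arntl, Fos, Angptl4, S100a8 and Cd79b, and Mirlet7d is among the 190.

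The calls depended on single mice. Without sham mouse 1, 2 or 3, 10, 14 and 5 of the 80 genes kept their call, and without 10 min mouse 1, 2 or 3 it was 64, 30 and 15. The direction of each of the 80 genes was the same in all of these fits, and 5 genes were called in every one of them: Dpm1, its read-through Dpm1-adnp, Dusp1, Arntl and D930048N14Rik. Dpm1 and Dpm1-adnp share exons, and the sum of their FPKM overlapped between the groups. With no filter on low FPKM, 1 gene kept its call, and in 1 fit over all 18 mice, 8 did. Every other call named below was lost without at least 1 of the 6 mice.

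**Figure D1:**
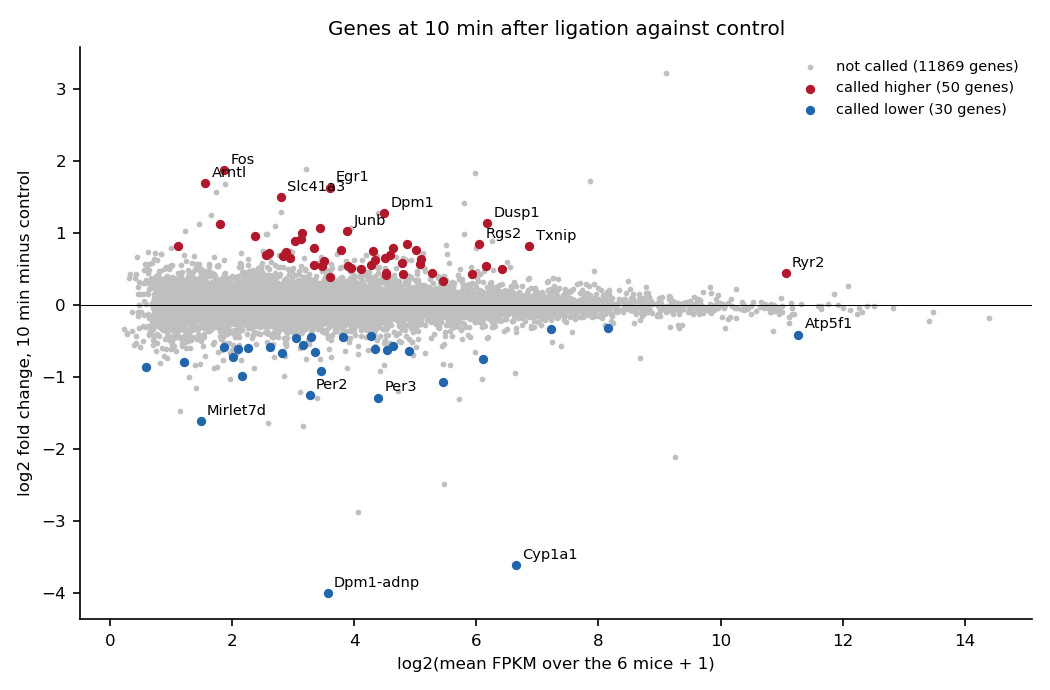
Log2 fold change at 10 min (log2(FPKM + 1), 10 min minus sham, the latter labelled control) of the 11949 genes against log2 of their mean FPKM plus 1 over the 6 mice. Red points are the 50 genes called higher and blue points the 30 called lower. Among the called genes, Arntl, Fos and Egr1 stand at the top while Dpm1-adnp and Cyp1a1 lie lowest, and some genes not called lie above Egr1.

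Markers of ventricular cardiomyocytes dominated the tissue. Tnnt2, cardiac troponin T, was at 21543 to 23970 FPKM in the sham mice and 19712 to 20461 FPKM at 10 min, and the other cardiomyocyte markers of the study, Slc2a4, Cs, Atp2a2 and Pdk2, were between 114 and 5084 FPKM in all 6 mice. The fibroblast markers Cilp and Comp stayed between 0.911 and 3.20 FPKM, and Ltbp2 stayed under 1 FPKM. Of 8 atrial markers, Myl7, Sln and Bmp10 were under 1 FPKM in all 6 mice. The other 5 were tested with 0 called, among them Nppa at 343 ± 139.7 FPKM in sham and 309.8 ± 60.4 FPKM in AMI mice. Under 1 FPKM in all 6 mice were also 8 of the 10 neutrophil markers in the table. FPKM summed to 570321 to 586718 per mouse. Depth relative to sham mouse 1, estimated from the lowest FPKM, ran from 0.977 to 1.11 in the sham mice and from 0.813 to 1.21 at 10 min. In bulk tissue, fewer cells of a type and less RNA per cell cannot be told apart.

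Immediate early transcription factors were the list with the most genes called higher. Of 31 listed genes 25 were tested, 7 were called higher and 1 lower, and 15 had an unadjusted p under 0.05 upwards and 1 downwards. The list median was a log2 fold change of 0.42, against 0.02 over all genes. The genes called higher were Fos, Egr1, Junb, Zfp36, Csrnp1, Btg2 and Fosl2.

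Fos, which encodes the AP-1 subunit c-FOS, was at 0.355, 0.697 and 0.537 FPKM in the sham mice and 6.92, 3.22 and 4.14 FPKM at 10 min. All AMI values exceeded every sham value (adjusted p = 0.0168, log2 fold change 1.87 with SE 0.21), but Fos passed the filter of 1 FPKM through the AMI mice alone. Egr1, a zinc finger factor driven by serum response factor, was at 4.12, 5.42 and 5.03 FPKM in the sham mice and 18.2, 12.4 and 21.6 FPKM at 10 min. The lowest AMI mouse had 12.4 FPKM and the highest sham mouse 5.42 FPKM (adjusted p = 0.0152, log2 fold change 1.63 with SE 0.18). Both calls were lost without sham mouse 1 or 3, with an adjusted p of up to 0.086 for Fos and 0.0759 for Egr1, and that of Fos also without 10 min mouse 3.

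Junb, another AP-1 subunit, was at 8.11, 8.54 and 9.504 FPKM in the sham mice and 22.8, 15.04 and 18.9 FPKM at 10 min. Its groups were well apart (adjusted p = 0.0256, log2 fold change 1.02 with SE 0.13). Zfp36, which encodes an mRNA decay factor that binds AU-rich elements, rose from 4.85 ± 0.671 to 10.8 ± 2.99 FPKM (adjusted p = 0.0444, log2 fold change 1.00 with SE 0.16). Csrnp1, a nuclear protein induced by AXIN1, rose from 3.602 ± 0.392 to 6.59 ± 1.22 FPKM (adjusted p = 0.0487, log2 fold change 0.71 with SE 0.12). Btg2, an antiproliferative cofactor of mRNA deadenylation, was at 14.9, 14.8 and 14.97 FPKM in the sham mice and 26.8, 21.2 and 23.1 FPKM at 10 min. Its sham mice lay close together, and each AMI mouse exceeded them (adjusted p = 0.0263, log2 fold change 0.63 with SE 0.09). Fosl2, the AP-1 subunit FRA2, rose from 8.08 ± 1.08 to 12.8 ± 0.5704 FPKM (adjusted p = 0.0347, log2 fold change 0.60 with SE 0.09). Ier3, a stress-inducible survival gene, was the called member that fell, from 28.9 ± 3.96 to 19.00 ± 0.677 FPKM (adjusted p = 0.0435, log2 fold change -0.57 with SE 0.09). Of the calls in this paragraph, those of Junb and Btg2 held without 10 min mouse 1 or 2, those of Zfp36 and Csrnp1 only without 10 min mouse 1, and those of Fosl2 and Ier3 in no fit with a mouse left out, with an adjusted p of up to 0.144 for Fosl2 and 0.126 for Ier3.

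Other members were measured without a call. Fosb, a further AP-1 subunit, was at 0.258, 1.19 and 0.815 FPKM in the sham mice and 3.52, 2.23 and 2.56 FPKM at 10 min (adjusted p = 0.0605, log2 fold change 1.13 with SE 0.21). Ier2 was at 23.04 ± 2.99 FPKM in sham and 36.03 ± 4.22 FPKM in AMI mice (adjusted p = 0.0546, log2 fold change 0.62 with SE 0.11). Klf4, a Kruppel-like factor, was at 36.8 ± 5.37 FPKM in sham and 55.4 ± 7.08 FPKM in AMI mice (adjusted p = 0.0866), and Jun was at 43.2 ± 5.26 FPKM in sham and 58.3 ± 8.01 FPKM in AMI mice (adjusted p = 0.146). Atf3, Nr4a1 and Nr4a3 had log2 fold changes of 0.35, 0.51 and 0.09, and Srf, the factor behind many of these genes, one of -0.08. Jund was listed at 1.14 FPKM in sham mouse 1 and 0.576 FPKM in 10 min mouse 1 and at 40.6 to 48.9 FPKM in the other 4 mice, so no difference between the groups could be read from it.

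Dusp1, which encodes the nuclear phosphatase that switches off p38, JNK and ERK kinases, was called with little spread between the AMI mice. It was at 37.8, 45.6 and 49.8 FPKM in the sham mice and 100.3, 97.5 and 96.5 FPKM at 10 min. The 3 AMI mice all lay well above the sham mice (adjusted p = 0.00568, log2 fold change 1.14 with SE 0.09), and the call held with any 1 mouse left out, with an adjusted p of 0.0068 to 0.0425. Among 14 tested members of the list of MAP kinase phosphatases and Sprouty inhibitors, Dusp1 was the only one called, 7 had an unadjusted p under 0.05 upwards and 0 downwards, and the list median was 0.16. Spry4, Dusp5, Dusp6 and Spry1, which restrain ERK signalling, differed from sham by 0.52, 0.40, 0.35 and 0.32 on the log2 scale. Their adjusted p values were 0.0776, 0.177, 0.147 and 0.177.

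The early genes called at 10 min were higher again at 1 h. Mean FPKM at 1 h was 66.99 for Fos, 129.9 for Egr1, 108 for Junb, 53.98 for Zfp36, 105 for Btg2 and 253 for Dusp1. Each of these 6 differed between the times in the direct test of the 3 mice at 1 h against the 3 at 10 min, which called 89 genes (0.745%). The largest of these differences was that of Fos, with a log2 fold change of 3.58 (adjusted p = 0.000372). Jun, Atf3 and Nr4a1, not called at 10 min, were at 244, 64.8 and 43.4 FPKM at 1 h, against 58.3, 3.34 and 5.33 FPKM at 10 min. The direct test uses the same 3 mice at 10 min as the calls against sham. In it, a return towards sham at 1 h is therefore not an independent result.

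The promoters of Dusp1, Btg2 and Zfp36 are shown because they hold motifs through which early genes are known to be switched on. They are RefSeq sequences on GRCm38.p6 from 250 bases before to 50 after the gene start, and 57 of the 80 called genes had one in the table used. Where a gene had more than 1 such sequence, that with the most matches to the motifs searched was shown. Capitals mark the cAMP response element TGACGTCA, the E-box CACGTG, or the CArG box bound by serum response factor, searched on both strands. The stretch of Dusp1 is chr17:26508423-26508722 on the minus strand, that of Btg2 chr1:134079106-134079405 on the minus strand and that of Zfp36 chr7:28379179-28379478 on the minus strand.
Dusp1: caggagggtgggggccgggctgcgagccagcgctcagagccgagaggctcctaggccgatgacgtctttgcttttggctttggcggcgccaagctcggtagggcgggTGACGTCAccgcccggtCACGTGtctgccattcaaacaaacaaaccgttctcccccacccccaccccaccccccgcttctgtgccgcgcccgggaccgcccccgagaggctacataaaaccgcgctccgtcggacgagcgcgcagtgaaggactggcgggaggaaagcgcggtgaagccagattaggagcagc
Btg2: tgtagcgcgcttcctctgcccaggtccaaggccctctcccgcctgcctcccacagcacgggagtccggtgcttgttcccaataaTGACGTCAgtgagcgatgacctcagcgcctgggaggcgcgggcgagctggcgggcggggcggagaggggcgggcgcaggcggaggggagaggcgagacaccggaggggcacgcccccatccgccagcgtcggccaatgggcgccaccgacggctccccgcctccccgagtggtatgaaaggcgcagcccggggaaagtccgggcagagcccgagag
Zfp36: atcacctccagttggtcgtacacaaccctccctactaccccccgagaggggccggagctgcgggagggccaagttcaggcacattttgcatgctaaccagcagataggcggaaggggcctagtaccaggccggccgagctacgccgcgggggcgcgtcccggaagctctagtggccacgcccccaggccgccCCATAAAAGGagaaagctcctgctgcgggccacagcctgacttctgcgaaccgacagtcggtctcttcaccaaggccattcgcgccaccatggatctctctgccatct
The cAMP response element lies at bases 108 to 115 of the Dusp1 stretch and 85 to 92 of that of Btg2, and the CArG box at bases 193 to 202 of that of Zfp36. The cAMP response element is in 1.79% of all 32851 promoters, the E-box in 7.15% and the CArG box in 1.63%, and over the 8955 tested genes with a promoter the shares are 3.52%, 12% and 1.62%. Of the 35 genes called higher that have a promoter in the table, 2, 4 and 1 hold them, and of the 22 called lower, 1, 5 and 1 do. The matches describe these letters and no measured binding.

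Clock genes were called in both directions. Of the 6 tested clock activators and ROR-driven genes, Arntl and Clock were called higher and Cry1 lower. Of the 13 repressors and output genes, all tested, 3 were called lower (Per2, Per3 and Hlf) and 0 higher, 9 had an unadjusted p under 0.05 downwards and 2 upwards, and the list median was -0.58.

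Arntl, which encodes BMAL1, was at 0.495, 0.344 and 0.327 FPKM in the sham mice and 4.55, 2.67 and 3.34 FPKM at 10 min. Every AMI value was far above the highest sham value (adjusted p = 0.00672, log2 fold change 1.68 with SE 0.15), but Arntl passed the filter of 1 FPKM through the AMI mice alone. The call held with any 1 mouse left out, with an adjusted p of 0.00545 to 0.0453. Clock, its partner, was at 16.8, 17.1 and 15.9 FPKM in the sham mice and 28.9, 23.9 and 27.3 FPKM at 10 min. The groups did not overlap (adjusted p = 0.0211, log2 fold change 0.65 with SE 0.08), but the call was lost without any 1 of the sham mice or without 10 min mouse 3, with an adjusted p of up to 0.104.

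Per2, a repressor of CLOCK and BMAL1, was at 10.3, 13.4 and 13.8 FPKM in the sham mice and 3.73, 6.36 and 4.14 FPKM at 10 min. Per3, its paralog, was at 30.2, 27.7 and 27.8 FPKM in the sham mice and 7.85, 11.8 and 14.5 FPKM at 10 min. Both were lower in every AMI mouse. The test gave adjusted p = 0.0263, log2 fold change -1.25 with SE 0.17 for Per2. For Per3 it gave adjusted p = 0.0263, log2 fold change -1.29 with SE 0.18. Cry1 fell from 4.76 ± 0.444 to 2.81 ± 0.395 FPKM (adjusted p = 0.0488, log2 fold change -0.60 with SE 0.10). Hlf, a PAR-domain leucine zipper factor of clock output, fell from 11.4 ± 0.221 to 6.98 ± 1.22 FPKM (adjusted p = 0.0487, log2 fold change -0.65 with SE 0.11). Cipc, an inhibitor of CLOCK that was in neither list and is named after its value was seen, fell from 15.3 ± 0.657 to 10.9 ± 0.198 FPKM (adjusted p = 0.0274, log2 fold change -0.44 with SE 0.06). Without any 1 of the sham mice the calls of Per2, Per3, Cry1, Hlf and Cipc were lost, with an adjusted p of up to 0.0952, 0.113, 0.169, 0.174 and 0.126. That of Per2 was also lost without 10 min mouse 3, that of Per3 without mouse 2, those of Hlf and Cipc without mouse 2 or 3, and that of Cry1 without any 1 of them.

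Several output genes lay below sham without a call. Dbp, a PAR-domain factor driven by E-boxes, was at 91.5, 88.9 and 86.5 FPKM in the sham mice and 26.6, 53.01 and 56.00 FPKM at 10 min. All AMI mice were below all sham mice, with 10 min mouse 1 the lowest (adjusted p = 0.105, log2 fold change -1.03 with SE 0.24). Tef, a relative of Dbp, was at 57.98, 62.6 and 58.5 FPKM in the sham mice and 24.1, 39.4 and 37.5 FPKM at 10 min (adjusted p = 0.0665, log2 fold change -0.84 with SE 0.16). Ciart, a further repressor, was at 9.07, 7.101 and 9.34 FPKM in the sham mice and 2.21, 5.93 and 3.81 FPKM at 10 min (adjusted p = 0.119, log2 fold change -0.99 with SE 0.24). Without 10 min mouse 1, Dbp and Tef passed, with an adjusted p of 0.00811 and 0.0105. With any other mouse left out neither did, with an adjusted p of up to 0.291 and 0.208. Per1 and Cry2 had log2 fold changes of -0.45 and -0.58 (adjusted p = 0.0546 and 0.0866). Nr1d1, which encodes REV-ERB alpha and is the main repressor of Arntl, was at 65.8 ± 5.67 FPKM in sham and 82.9 ± 13.6 FPKM in AMI mice, with overlapping groups (adjusted p = 0.26).

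The clock genes did not follow the order of the times. At 1 h Arntl was at 0.6003 FPKM, near the sham level of 0.389 FPKM, and lower than at 10 min (log2 fold change -1.496, adjusted p = 0.0108), and Per2 was at 14.8 FPKM, above its 10 min level (log2 fold change 1.45, adjusted p = 0.0296). At 72 h Arntl reached 10.1 FPKM and Per2 was at 0.836 FPKM. The hour at which each group was collected was not given in the sources used here, and its part in these differences was not tested.

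**Figure D2:**
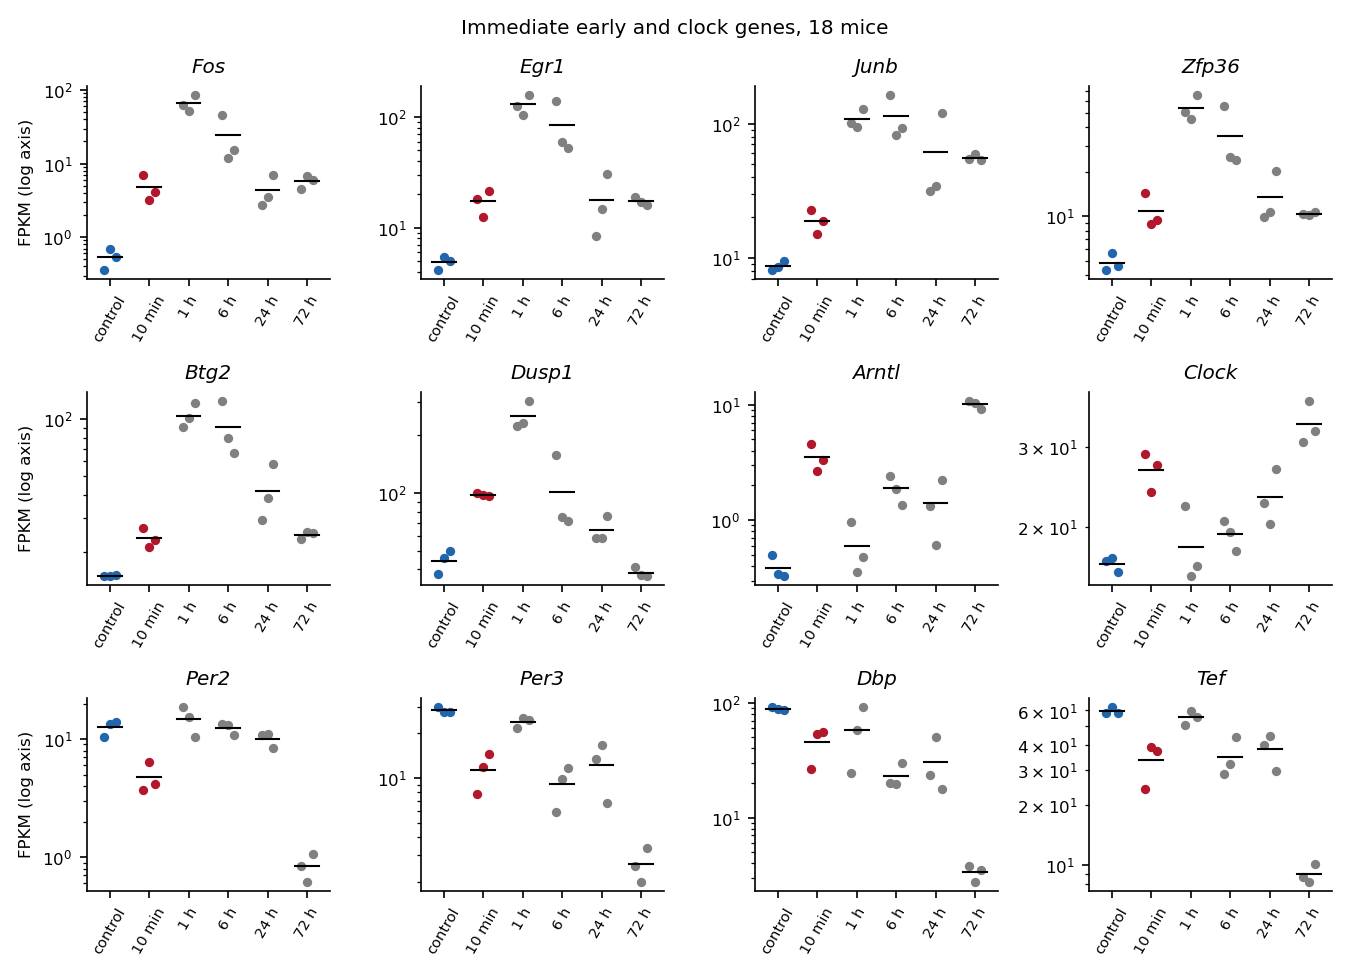
FPKM (log axis) of 6 early response genes and 6 clock genes in all 18 mice, 3 per group, where each point is a mouse, the bar is the group mean, blue is sham (labelled control) and red is 10 min. The early genes lie higher at 1 h than at 10 min, while Arntl at 1 h lies near the sham mice and Per2 and Per3 at 1 h above the 10 min mice.

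The promoters of Arntl, Ciart and Per3 are shown for the clock elements they hold. Capitals mark the ROR response element (RORE) in that of Arntl, the E-box CACGTG in that of Ciart, and the D-box, searched as TTATGTAA or TTACGTAA, in that of Per3. They are chr7:113207261-113207560 on the plus strand, chr3:95882179-95882478 on the minus strand and chr4:151044616-151044915 on the minus strand of GRCm38.p6, again from RefSeq. Each was picked by its motif matches in the same way.
Arntl: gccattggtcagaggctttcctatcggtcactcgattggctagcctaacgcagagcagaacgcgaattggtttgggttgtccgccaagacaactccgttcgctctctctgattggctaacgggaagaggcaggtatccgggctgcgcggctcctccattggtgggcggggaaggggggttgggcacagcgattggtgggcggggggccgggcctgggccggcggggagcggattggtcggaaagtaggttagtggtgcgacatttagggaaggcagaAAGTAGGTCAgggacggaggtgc
Ciart: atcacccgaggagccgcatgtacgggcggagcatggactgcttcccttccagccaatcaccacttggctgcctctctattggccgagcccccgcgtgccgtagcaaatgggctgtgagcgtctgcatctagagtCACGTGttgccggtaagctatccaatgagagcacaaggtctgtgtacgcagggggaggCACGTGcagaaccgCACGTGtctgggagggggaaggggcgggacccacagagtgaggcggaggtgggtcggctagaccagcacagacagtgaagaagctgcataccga
Per3: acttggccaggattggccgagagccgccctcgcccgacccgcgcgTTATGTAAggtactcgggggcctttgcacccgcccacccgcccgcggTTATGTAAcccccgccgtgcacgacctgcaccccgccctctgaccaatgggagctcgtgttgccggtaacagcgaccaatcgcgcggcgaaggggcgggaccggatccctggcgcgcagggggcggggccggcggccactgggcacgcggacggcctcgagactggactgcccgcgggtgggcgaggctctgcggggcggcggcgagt
The RORE of Arntl lies at bases 278 to 287, the 3 E-boxes of Ciart at bases 135 to 140, 193 to 198 and 207 to 212, and the 2 D-boxes of Per3 at bases 46 to 53 and 93 to 100. RORE matches are in 0.371% of the 32851 promoters and D-box matches in 1.06%, and over the 8955 tested genes in 0.279% and 0.838%, beside 12% for the E-box. Of the 22 genes called lower that have a promoter in the table, 5 hold an E-box and 1 a D-box, and of the 35 called higher, 2 hold a RORE, Arntl and Leo1.

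Of the 36 gene lists, 9 had a called member and 27 had none. Among the 21 lists with no call and at least 5 members tested, the median log2 fold change ran from -0.20 to 0.37. The highest was that of 14 early secreted factors, of which 5 had an unadjusted p under 0.05 upwards and 0 downwards. Cyr61 and Ctgf, matricellular targets of YAP, had log2 fold changes of 0.62 and 0.51 (adjusted p = 0.074 and 0.177). The 37 ribosomal protein genes had a median of -0.01 and the 18 heat shock genes one of 0.02, with 0 called in each.

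**Figure D3:**
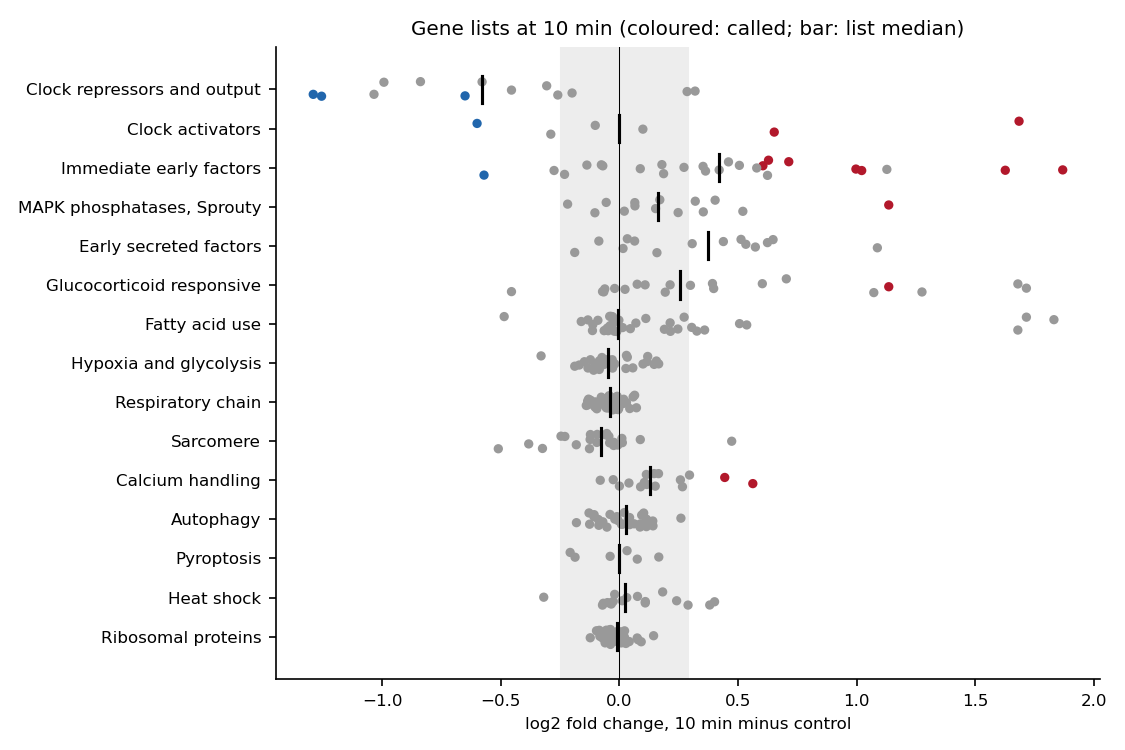
Log2 fold change at 10 min of the tested members of 15 gene lists, 1 point per gene, with red for called higher, blue for called lower, grey for not called and a black bar at the list median. Grey shading spans the 5th to 95th percentile of all genes. Clock repressors and output lie left of 0 with a median of -0.58, immediate early factors right of it with a median of 0.42, and metabolic, sarcomere and autophagy lists lie close to 0.

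No gene of the sarcomere list was called, and a pair of calcium handling genes was called higher. Of 22 sarcomere genes 0 were called, 8 had an unadjusted p under 0.05 downwards and 1 upwards, and the median was -0.08. Myh7, the slow myosin heavy chain, was at 122.6, 107.8 and 108.4 FPKM in the sham mice and 90.2, 86.6 and 82.2 FPKM at 10 min, which missed the threshold (adjusted p = 0.0546). Of 16 calcium handling genes, Ryr2 and Slc8a1 were called higher, 7 had an unadjusted p under 0.05 upwards and 0 downwards, and the median was 0.13.

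Ryr2, the calcium release channel of the sarcoplasmic reticulum, was at 1698, 1811 and 1937 FPKM in the sham mice and 2278, 2647 and 2489 FPKM at 10 min. Slc8a1, the sodium-calcium exchanger of the cell membrane, was at 24.1, 27.3 and 27.1 FPKM in the sham mice and 41.5, 41.2 and 34.8 FPKM at 10 min. In neither gene did the groups overlap. The test gave adjusted p = 0.0391, log2 fold change 0.44 with SE 0.07 for Ryr2. For Slc8a1 it gave adjusted p = 0.0347, log2 fold change 0.56 with SE 0.09. Atp2a2, the calcium pump of the reticulum, was at 3931 to 4026 FPKM in the sham mice and 4527 to 5084 FPKM at 10 min (adjusted p = 0.0866). Both calls were lost under median-of-ratios scaling and when each mouse was centred within bins of gene length, and with 1 mouse left out each call held in 1 fit of 6, that of Ryr2 without 10 min mouse 1 and that of Slc8a1 without 10 min mouse 3.

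Receptor signalling genes of the heart were among the called genes, though they formed no list and are named after their values were seen. Rgs2, which shortens Gq signalling, was at 48.9, 39.4 and 51.8 FPKM in the sham mice and 91.7, 80.8 and 79.3 FPKM at 10 min. All 3 AMI mice lay above the sham mice (adjusted p = 0.0217, log2 fold change 0.84 with SE 0.11). Chrm2, the muscarinic receptor of the heart, rose from 13.8 ± 1.93 to 23.7 ± 2.85 FPKM (adjusted p = 0.0369, log2 fold change 0.74 with SE 0.12). Grk5, a kinase that desensitizes G protein-coupled receptors, rose from 7.22 ± 0.797 to 11.03 ± 0.455 FPKM (adjusted p = 0.0347, log2 fold change 0.55 with SE 0.08). Pde3a, the cyclic AMP phosphodiesterase of cardiomyocytes, was at 4.78, 4.74 and 4.604 FPKM in the sham mice and 7.97, 11.3 and 9.48 FPKM at 10 min (adjusted p = 0.0217, log2 fold change 0.88 with SE 0.11). Prkca, which encodes protein kinase C alpha, rose from 9.57 ± 0.139 to 12.8 ± 0.355 FPKM (adjusted p = 0.0391, log2 fold change 0.38 with SE 0.06). With 1 mouse left out, the calls of Rgs2 and Pde3a held in 2 fits of 6, and those of Chrm2, Grk5 and Prkca in 1. Chrm2, Grk5, Pde3a and Prkca span 140648 to 410502 bases and lie in the longest of 10 bins of gene length. In that bin 17.4% of genes were higher at an unadjusted p under 0.05, against 9.11% of all genes. The part of length in these calls was not tested.

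Called genes known from extracellular matrix and vessel wall are described together, though they formed no list and were picked after their values were seen. Spon2, a secreted matrix protein, was at 1.35, 1.13 and 1.12 FPKM in the sham mice and 4.49, 3.32 and 3.64 FPKM at 10 min. Col5a3, a chain of type V collagen, was at 6.75, 5.25 and 6.01 FPKM in the sham mice and 15.5, 11.6 and 13.96 FPKM at 10 min. In both, each AMI mouse had more than every sham mouse. For Spon2 the result was adjusted p = 0.0112, log2 fold change 1.13 with SE 0.11. For Col5a3 it was adjusted p = 0.0152, log2 fold change 1.06 with SE 0.12. Eln, the gene of elastin, rose from 17.4 ± 1.77 to 28.5 ± 1.87 FPKM (adjusted p = 0.0217, log2 fold change 0.69 with SE 0.09). Fbn1, which encodes a fibrillin of elastic fibres, rose from 6.43 ± 0.835 to 11.8 ± 1.35 FPKM (adjusted p = 0.0263, log2 fold change 0.79 with SE 0.11). Adam19, a metalloprotease, rose from 14.7 ± 0.506 to 22.03 ± 1.69 FPKM (adjusted p = 0.0256, log2 fold change 0.55 with SE 0.07). With 1 mouse left out, the call of Spon2 was lost only without sham mouse 3, that of Col5a3 without sham mouse 3 or 10 min mouse 3, and those of Eln, Fbn1 and Adam19 without any 1 of the sham mice and without 1 of the 10 min mice. The 11 tested fibroblast markers had a median of 0.20, 3 with an unadjusted p under 0.05 upwards and 0 downwards, with 0 called. Their FPKM summed to 416 to 486 in the sham mice and 495 to 571 at 10 min, and their part in these results was not tested. At 1 h Spon2 and Col5a3 were at 0.823 and 5.47 FPKM, both lower than at 10 min in the direct test (adjusted p = 0.0377 and 0.0396).

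The 10 listed endothelial markers had a median of 0.07, with 0 called, and summed to 1639 to 1707 FPKM in the sham mice and 1712 to 2092 FPKM at 10 min. Apold1, Cldn5, Tnfaip2 and Ly6c1 are not on that list and were picked from the called genes after their values were seen. Apold1, an endothelial early response gene, was at 4.58, 4.96 and 5.67 FPKM in the sham mice and 12.6, 9.22 and 9.69 FPKM at 10 min (adjusted p = 0.0256, log2 fold change 0.92 with SE 0.12). Cldn5, the tight junction claudin of endothelium, was at 16.7, 19.7 and 23.5 FPKM in the sham mice and 31.2, 36.9 and 41.2 FPKM at 10 min (adjusted p = 0.0369, log2 fold change 0.84 with SE 0.13). Tnfaip2, a TNF-inducible gene of endothelium, was at 24.6, 21.5 and 22.5 FPKM in the sham mice and 36.2, 42.1 and 39.9 FPKM at 10 min (adjusted p = 0.0129, log2 fold change 0.76 with SE 0.08), and with 1 mouse left out its call was lost only without sham mouse 3. Groups did not overlap in any of the 3 genes. Ly6c1, a surface protein of endothelium and some leukocytes, fell from 316 ± 14.2 to 253 ± 7.997 FPKM (adjusted p = 0.0493, log2 fold change -0.32 with SE 0.05).

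Metabolic genes split between a few that differed widely among the 10 min mice and many that were level. Of 36 genes of fatty acid use 0 were called, 11 had an unadjusted p under 0.05 upwards and 0 downwards, and the median was -0.01. Of 38 respiratory chain genes 0 were called and 3 had an unadjusted p under 0.05 downwards, with a median of -0.04, and of 28 hypoxia and glycolysis genes 0 were called and 3 had an unadjusted p under 0.05 downwards. Txnip, which restrains thioredoxin and glucose uptake, was called, at 76.8, 99.05 and 76.6 FPKM in the sham mice and 145, 140.2 and 158 FPKM at 10 min (adjusted p = 0.0217, log2 fold change 0.81 with SE 0.10). Slc16a1, a lactate and pyruvate carrier, fell from 166 ± 6.68 to 131 ± 5.23 FPKM (adjusted p = 0.0446, log2 fold change -0.34 with SE 0.06). Atp5f1, a subunit of the ATP synthase stalk, fell from 2832 ± 44.7 to 2126 ± 49.9 FPKM (adjusted p = 0.0152, log2 fold change -0.41 with SE 0.04).

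Pdk4, the kinase that shuts pyruvate dehydrogenase, was at 118, 95.2 and 77.6 FPKM in the sham mice and 144, 381 and 574 FPKM at 10 min. Ucp3, a mitochondrial carrier, was at 21.5, 22.3 and 21.3 FPKM in the sham mice and 29.4, 92.9 and 183 FPKM at 10 min. Angptl4, a secreted inhibitor of lipoprotein lipase, was at 0.297, 0.473 and 0.518 FPKM in the sham mice and 0.737, 3.83 and 10.4 FPKM at 10 min. In all 3 genes each AMI mouse was above every sham mouse, with mouse 1 the lowest and mouse 3 the highest, and the spread between the AMI mice left their log2 fold changes of 1.72, 1.83 and 1.68 without a call (adjusted p = 0.123, 0.17 and 0.218). Without 10 min mouse 1 all 3 passed, with adjusted p values of 0.00811, 0.00851 and 0.0231. With any other mouse left out none of them passed, with an adjusted p of up to 0.288, 0.393 and 0.453.

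Cdkn1a, which encodes the cell cycle inhibitor p21, and Errfi1, an inhibitor of the EGF receptor, were highest in 10 min mouse 1. Cdkn1a was at 10.3, 8.82 and 11.2 FPKM in the sham mice and 53.6, 21.1 and 14.9 FPKM at 10 min. Errfi1 was at 8.69, 8.83 and 8.13 FPKM in the sham mice and 30.9, 14.1 and 15.8 FPKM at 10 min. Neither was called (adjusted p = 0.178 and 0.0972). Thbs1 was at 18.4, 3.77 and 3.53 FPKM in the AMI mice and 2.23 to 3.03 FPKM in the sham mice, with 10 min mouse 1 again highest. Of 7863 genes with a mean of at least 5 FPKM, 20 ranged over 2-fold among the 10 min mice and under 1.2-fold among the sham mice on FPKM + 1, and 7 showed the reverse. Of the 20, 6 were highest in 10 min mouse 1, 4 in mouse 2 and 10 in mouse 3. The highest mouse was not always the mouse furthest from sham. Ank1 was at 129, 46.8 and 43.4 FPKM at 10 min and at 118.6 to 127 FPKM in the sham mice. Atp6v0c and Atp6v0c-ps2, near-identical genes that traded values, are both among the 20.

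**Figure D4:**
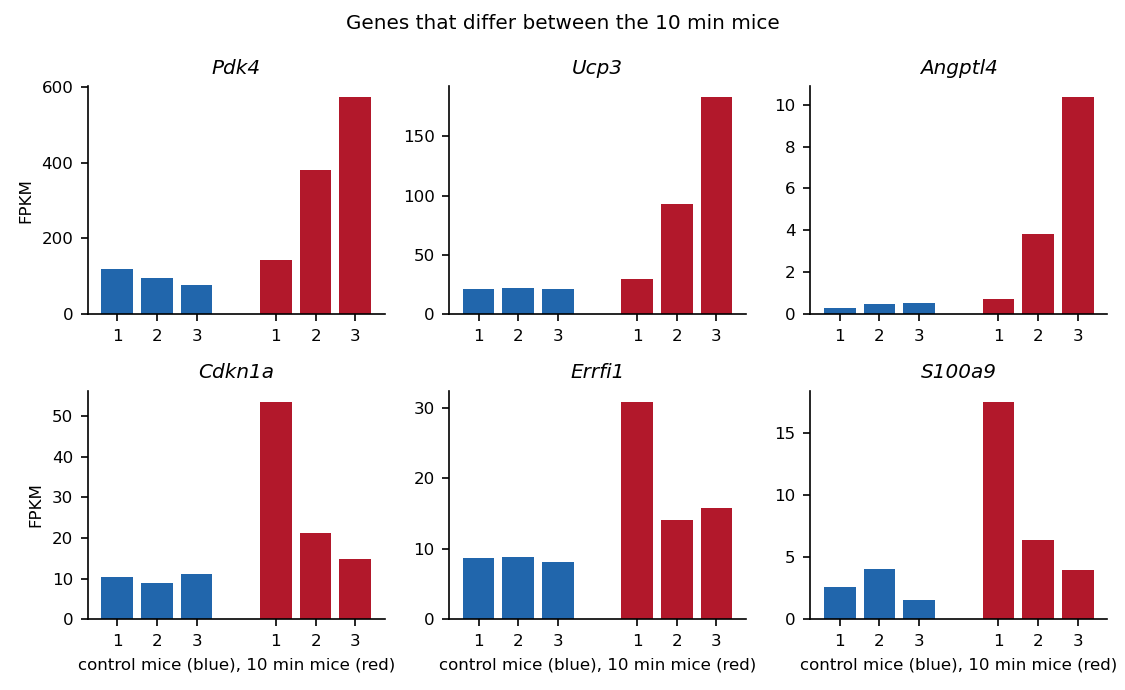
FPKM of 6 genes in each sham mouse (blue bars, labelled control) and each 10 min mouse (red bars), with axes starting at 0. Pdk4, Ucp3 and Angptl4 are lowest in 10 min mouse 1 and highest in mouse 3, while Cdkn1a, Errfi1 and S100a9 are highest in mouse 1.

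Of 20 glucocorticoid-responsive genes, which include Pdk4, Angptl4, Cdkn1a and Errfi1, Dusp1 was the 1 called, 7 had an unadjusted p under 0.05 upwards and 1 downwards, and the median was 0.26, with mouse medians of 0.59, 0.19 and -0.03. Sgk1, a kinase of this group, was at 14.1 to 14.6 FPKM in the sham mice and 31.1, 21.1 and 20.9 FPKM at 10 min (adjusted p = 0.0707). Fkbp5 and Tsc22d3, textbook targets of the glucocorticoid receptor, had log2 fold changes of 0.07 and -0.07, with overlapping groups.

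Cyp1a1, a xenobiotic-oxidizing enzyme driven by the aryl hydrocarbon receptor, was at 87.3, 160.0 and 304 FPKM in the sham mice and 14.98, 22.6 and 5.27 FPKM at 10 min. Among the genes tested only Dpm1-adnp had a larger fall on the log2 scale (adjusted p = 0.0312, log2 fold change -3.62 with SE 0.53 for Cyp1a1), and the call was lost without any 1 of the sham mice or without 10 min mouse 3, with an adjusted p of up to 0.0979. Cyp26b1, which breaks down retinoic acid, was at 37.9, 185 and 12.9 FPKM in the sham mice and 4.41, 7.27 and 11.6 FPKM at 10 min (adjusted p = 0.207, log2 fold change -2.49 with SE 0.79). Msln and Upk3b mark the mesothelium that covers the heart. Msln was at 8.04 ± 3.23 FPKM in sham and 1.98 ± 1.37 FPKM in AMI mice (adjusted p = 0.0895), and Upk3b was at 3.25 ± 1.84 FPKM in sham and 1.25 ± 0.867 FPKM in AMI mice (adjusted p = 0.309). Wt1, the third tested marker of this list, had a log2 fold change of -0.07, and Upk1b, Krt8, Krt18, Krt19 and Lrrn4 were under 1 FPKM in all 6 mice. The 3 tested mesothelial markers summed to 7.42 to 18.0 FPKM in the sham mice and 2.88 to 7.78 FPKM at 10 min, and the part of that tissue in the values of Cyp1a1 and Cyp26b1 was not tested.

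No marker list of blood cells had a called member. S100a9, an alarmin of neutrophils, was at 2.62, 4.02 and 1.53 FPKM in the sham mice and 17.5, 6.35 and 3.96 FPKM at 10 min. Its partner S100a8 was at 0.3404, 0.5498 and 0.375 FPKM in the sham mice and 4.62, 1.21 and 0.923 FPKM at 10 min. Both were highest in 10 min mouse 1 and neither was called (adjusted p = 0.234 and 0.234). Tubb1, a tubulin of platelets, was at 0.681 ± 0.618 FPKM in sham and 4.003 ± 1.82 FPKM in AMI mice (adjusted p = 0.0777). Ppbp, a platelet chemokine, was at 0.792 ± 0.355 FPKM in sham and 3.53 ± 1.96 FPKM in AMI mice (adjusted p = 0.147), while Pf4, another platelet gene, was at 15.6 to 19.5 FPKM in the sham mice and 14.6 to 19.9 FPKM at 10 min. The 11 tested macrophage and monocyte markers and the 10 pan-leukocyte markers had medians of -0.02 and 0.12, with 0 called. Of 12 listed T, NK and B cell markers 2 were tested, Cd79a and Cd79b, the signalling chains of the B cell receptor. Cd79a was at 1.07, 0.726 and 0.656 FPKM in the sham mice and 1.23, 1.82 and 1.97 FPKM at 10 min (adjusted p = 0.136, log2 fold change 0.55 with SE 0.14). Cd79b was at 0.839, 0.596 and 0.463 FPKM in the sham mice and 1.37, 1.33 and 1.35 FPKM at 10 min (adjusted p = 0.0866, log2 fold change 0.53 with SE 0.11). In both the AMI mice lay above the sham mice, close to the limit of 1 FPKM. The 8 tested erythroid markers had a median of -0.20, 3 with an unadjusted p under 0.05 downwards and 0 upwards, with 0 called, and their FPKM summed to 3165 to 4918 in the sham mice and 3129 to 3337 at 10 min. Hba-a2, an alpha globin, was at 2159, 1560 and 2647 FPKM in the sham mice and 1583, 1619 and 1612 FPKM at 10 min, with overlapping groups (adjusted p = 0.319).

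Of the 6 genes that the study followed as early or pyroptosis markers, 0 had a called transcript. From its protein data at 10 min and 1 h, the study names Wipi1 and Rrad as upregulated and Pdk4 and Ndufb8 as downregulated. It followed Gsdmd as mRNA, and Casp1 as mRNA and protein. Pdk4, whose values stand above, was the 1 member past the thresholds of the study. Its mRNA mean was 97.04 FPKM in sham and 366.5 FPKM in AMI mice, opposite in direction to the protein change. Wipi1, an autophagy protein, was at 15.3, 15.3 and 15.3 FPKM in the sham mice and 15.9, 17.3 and 17.6 FPKM at 10 min (adjusted p = 0.367, log2 fold change 0.13 with SE 0.06). Rrad, a small GTPase that restrains calcium channels, was at 138 ± 16.9 FPKM in sham and 117 ± 8.37 FPKM in AMI mice (adjusted p = 0.284). Ndufb8, a complex I subunit, was at 2036 ± 61.1 FPKM in sham and 1955 ± 90.6 FPKM in AMI mice (adjusted p = 0.641). Gsdmd and Casp1, the pore-forming protein of pyroptosis and the caspase upstream of it, had log2 fold changes of -0.21 and -0.04 (adjusted p = 0.333 and 0.913). Of 32 autophagy genes and 6 tested pyroptosis genes 0 were called, with medians of 0.03 and -0.00338.

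The strongest call belonged to a locus where 2 symbols share exons. Dpm1, a subunit of dolichol-phosphate mannose synthase on chromosome 2 (168209048 to 168230591, minus strand, mm10), was at 12.5, 12.7 and 11.2 FPKM in the sham mice and 28.5, 33.6 and 30.4 FPKM at 10 min (adjusted p = 0.00209, log2 fold change 1.28 with SE 0.08). Dpm1-adnp, the read-through of Dpm1 into Adnp (Gm20716 in GENCODE M21), was at 21.7, 20.8 and 20.99 FPKM in the sham mice and 0, 1.65 and 0 FPKM at 10 min (adjusted p = 0.00568, log2 fold change -4.001 with SE 0.33). The FPKM of both symbols summed to 34.2, 33.5 and 32.1 in the sham mice and 28.5, 35.2 and 30.4 at 10 min, so the summed levels overlapped. The 2 symbols also traded values between mice of a single group. At 6 h Dpm1 was at 29.11, 10.35 and 10.14 FPKM, and Dpm1-adnp at 0, 18.28 and 15.31 FPKM. How fragments were shared out between the 2 symbols was not tested.

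Other called symbols overlap as well. Of the 80 called genes, 11 share at least 10% of their exonic length with another GENCODE gene, and the library kit does not mark strand. Ankrd23, a stretch-responsive ankyrin repeat protein called higher (adjusted p = 0.0263, log2 fold change 0.49 with SE 0.07), shares 78.2% with Gm42417. Mirlet7d and Mir7115, called lower, lie wholly within the exons of 6720427I07Rik and Arrb2, and over the 96 tested symbols of miRNA genes the median log2 fold change was -0.28, with 3 called lower. These libraries hold polyA RNA, so mature miRNAs were not measured. Near-identical genes traded values between mice of a group. Hbb-b1 was at 1275 FPKM in sham mouse 1 and under 1 FPKM in the other 2 sham mice, and Atp6v0c was at 3.76 FPKM in 10 min mouse 1, where Atp6v0c-ps2 was at 49.5 FPKM.

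Longer genes tended to be higher at 10 min. In 10 bins of genomic length, the median log2 fold change rose from -0.03 in the shortest genes to 0.07 in the longest, and the share of genes higher at an unadjusted p under 0.05 rose from 5.26% to 17.4% while that of genes lower fell from 12.4% to 2.37%. In the longest bin the difference from the sham mean was 0.0215, 0.0713 and 0.133 for 10 min mice 1, 2 and 3. Genes called higher had a median genomic length of 43006 bases and genes called lower one of 13114 bases, against 23218 bases over all genes with a length. Of the genes called higher, 16 lay in the longest bin of 1139 genes, beside 3 of those called lower. After centring within the bins 68 of the 80 genes kept their call, Fos, Egr1, Dusp1, Arntl, Per2 and Per3 among them. Fos, Egr1 and Dusp1 lie in the shortest bin, with a median of -0.03. The part of length in single results was not tested.

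**Figure D5:**
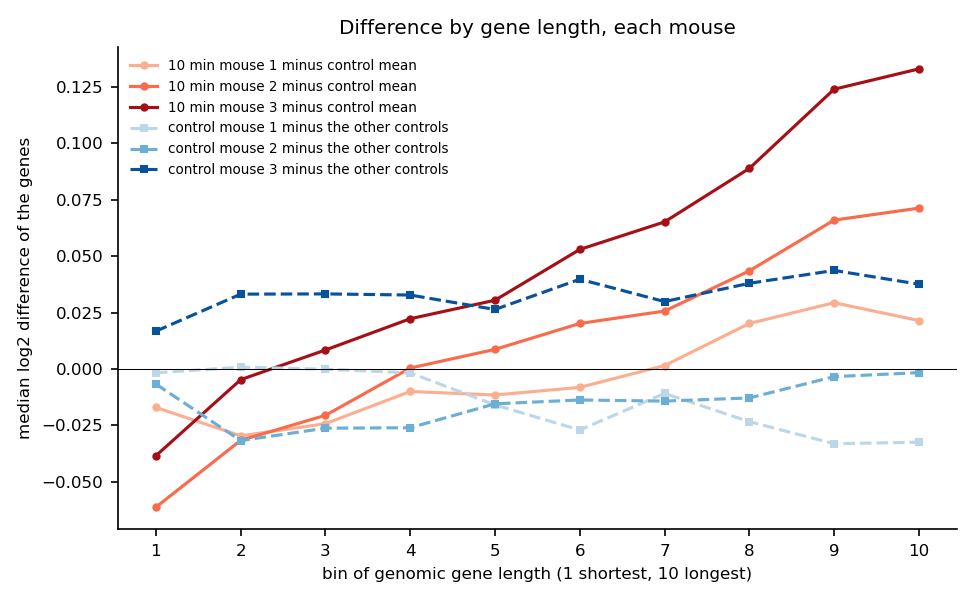
Median log2 difference of the genes in each of 10 bins of genomic gene length, from the shortest (1) to the longest (10), for each 10 min mouse against the sham mean (solid lines) and each sham mouse (labelled control) against the other sham mice (dashed lines). The 3 solid lines end higher than they begin, at 0.0215 to 0.133 in the longest bin, and the dashed lines lie between -0.0331 and 0.0437.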

How the data were processed

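PolyA RNA of 18 mouse hearts was sequenced after an unstranded NEBNext Ultra library preparation. Adaptors and low-quality bases were removed by the authors with cutadapt 1.18, reads aligned to mm10 with HISAT2 2.1.0, and FPKM estimated with StringTie 1.3.4d. FPKM are deposited by gene symbol for each mouse, and the gene annotation is not given in the sources used here.

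Here the 3 mice at 10 min were compared with the 3 control mice, called sham, with limma 3.58.1 in R 4.3.3 (a linear model of log2(FPKM + 1), with moderated variances that follow a trend on expression). The test was two-sided, and p-values were adjusted by Benjamini and Hochberg's method over the genes that reached 1 FPKM in any of the 6 mice. FPKM were not rescaled. On simulated data of the same size the fit called 105 of 112 genes changed by 1 on the log2 scale, 88 of 88 changed by 2, and 10 of 11749 unchanged genes. The simulated noise was normal and independent between genes, and changed genes were drawn from those with a mean log2(FPKM + 1) over 2. Smaller changes, such as the medians of 0.69 and -0.63 among the called genes, were not simulated. The members and the 36 gene lists were chosen with earlier results of these data known, so no set test was run, and list counts stand beside those of all genes.

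Named genes were the 30 with the smallest p among those called, the 12 that rose most and the 12 that fell most at an unadjusted p under 0.05 with groups that did not overlap (predicted genes left out), list members past the thresholds of the study, and all members of the clock, immediate early, MAP kinase phosphatase and study marker lists. Others were named after their values were seen. Positions and exon overlaps came from GENCODE M21 on mm10, where 11483 of the 11949 symbols matched, and gene lengths and promoters from RefSeq on GRCm38.p6. Alternatives were pseudocounts of 0.1 and 0.5, other filters and scalings, 1 fit over all mice, no variance trend, a replicate block and leaving out each mouse. Tables were handled in Python 3.11.15 with pandas 2.3.3 and numpy 2.4.6, and plots drawn with matplotlib 3.10.9.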

Additional observations from a re-analysis of the deposited data

Results flagged for a closer look

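A direct limma test of the 3 mice at 1 h against the 3 at 10 min set apart 33 of the named genes, each with an adjusted p under 0.05, and the values below are log2 fold changes, 1 h minus 10 min. The 3 mice at 10 min are those that gave the calls against sham, so a return towards sham at 1 h is not an independent result. Of the early genes called higher at 10 min, 9 were higher still at 1 h: Fos 3.58, Egr1 2.84, Junb 2.45, Zfp36 2.22, Btg2 2.09, Fosl2 0.56, Csrnp1 1.31, Dusp1 1.34 and Apold1 2.03. A further 11, not called at 10 min against sham, were also higher at 1 h: Fosb 4.05, Jun 2.04, Atf3 3.93, Nr4a1 2.82, Nr4a3 1.25, Ier2 1.74, Klf2 1.07, Klf4 0.79, Nfkbiz 2.31, Ier5 1.73 and Spry4 0.58.

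Of the genes called higher at 10 min, 8 were lower at 1 h: Spon2 -1.45, Tnfaip2 -0.65, Col5a3 -1.22, Slc41a3 -1.27, Tspan18 -0.48, Adam19 -0.75, Ankrd23 -0.58 and Arntl -1.496. Among them were Arntl, from 3.52 to 0.6 FPKM, and Spon2, from 3.81 to 0.823 FPKM. Genes that lay below sham at 10 min were higher at 1 h, with differences of Per2 1.45, Cyp1a1 2.98, Nfil3 0.80, Per1 0.70 and Ier3 1.08. Cyp1a1 was at 184 FPKM in the sham mice, 14.3 FPKM at 10 min and 115 FPKM at 1 h.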

How the results depend on the processing

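Counts of called genes, 50 higher and 30 lower, moved with the filter, the spread estimate and single mice. No filter on low FPKM gave 1 higher and 0 lower by limma (1839 genes had an unadjusted p under 0.05 with the filter), 1 fit over all 18 mice 3 and 5, no variance trend 25 and 14, and a filter over all 18 mice, chosen after seeing the data, 33 and 13. With 1 mouse left out, 4 to 86 genes were called higher and 2 to 35 lower: 9 and 2, 14 and 4, and 4 and 3 without sham mouse 1, 2 or 3, and 86 and 35, 24 and 13, and 10 and 9 without 10 min mouse 1, 2 or 3. Numbers shared between groups were not taken as pairs, since deviations of same-numbered mice correlated at -0.045, 0.087 and -0.064, and the replicate block gave 68 and 40, of which 64 were among the 80. Quantile normalization gave 53 and 45, and median-of-ratios scaling 50 and 43.

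By p under 0.05 with a ratio over 2, the counts were 191 and 164 with no filter, 32 and 31 with a filter on the mean, 91 and 70 with the filter over 18 mice, and 20 and 12 with a log2 fold change over 1. By p under 0.05 alone, the fit over 18 mice gave 479 and 360, and 1 mouse left out gave 712 (without sham mouse 1) to 1411 higher and 510 to 881 lower. The split of 1089 higher to 750 lower became 926 to 953 under median-of-ratios scaling and 848 to 923 after centring by gene length, which was chosen after seeing the data. For the causes of these shifts no test was run, and no called gene reversed. With 3 mice per group an exact permutation test cannot go below p = 0.1. The table holds no read counts, so counting error was not computed.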
